A study of Mus musculus with 6 samples.

Results

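TRIM16 and 9 genes of the NRF2 antioxidant pathway were followed through A375 melanoma grafts under an EZH2 inhibitor. The genes were taken by their Ensembl identifiers: TRIM16, NFE2L2, KEAP1, NQO1, GCLM, GCLC, HMOX1, TXNRD1, SLC7A11 and ME1. The identifiers of 8 of these 10 genes each stood on a listed locus, out of 15234 loci listed in at least 1 tumour. TRIM16 was picked because its values were lower in every inhibitor-treated tumour, so that difference is a description and carries no test. The other 9 genes were taken for their place in the pathway.

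A375 is an established human melanoma cell line, labelled WT. Its cells were grown under the skin of BALB/c nude mice, which lack T cells. When tumours measured about 100 mm3, 5 mice each were given vehicle or ZLD1039, an inhibitor of the histone methyltransferase EZH2, at 100 mg/kg by mouth once a day. RNA was measured in 3 tumours of each group on day 27. Both groups carry the same cell line in the same host, and the labels name no other agent. Nothing used here states that the 3 tumours of a group grew in different mice, so p-values measure only the spread between these samples, which may be technical.

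NRF2, the product of NFE2L2, is a transcription factor that KEAP1 holds in the cytoplasm and hands to a CUL3 ubiquitin ligase for destruction. Oxidants and electrophiles modify KEAP1, NRF2 then accumulates, and genes with antioxidant response elements are transcribed. Those genes supply glutathione, NADPH, reduced thioredoxin and quinone and haem detoxification. TRIM16 is a tripartite-motif protein with ubiquitin ligase activity, known for binding NRF2 and KEAP1 and for a role in the autophagy of damaged lysosomes and protein aggregates. Melanoma cells meet oxidative load from pigment synthesis and during spread.

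Values are FPKM, fragments per length of transcript and size of library, given by the authors for each transcript event (a start site, an end site, an included or skipped exon). Each locus was given its summed starts, its summed ends or its largest event, whichever was highest, as a lower bound of its abundance. The positions are human although the labels name the mouse, with the human build not given in the sources used here. A tumour listed 117347 to 126622 distinct events in 12114 to 12758 loci, and the number of sequenced fragments is unknown. ZLD1039 tumour 2 stood apart. Its score on the leading component of all tested loci (34.2% of variance) was 51.9, against -13.3 to -4.02 in the remaining 5 tumours.

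TRIM16, the gene picked for its lower values, had the largest difference among these genes. The locus (ENSG00000221926, chromosome 17, 15491702 to 15587625, minus strand) measured 10.6, 11.5 and 14.6 FPKM in vehicle tumours 1, 2 and 3. It measured 2.71, 4.53 and 2.54 FPKM in ZLD1039 tumours 1, 2 and 3. Every ZLD1039 tumour lay below every vehicle tumour, as the pick required. The group means were 12.2 ± 2.09 and 3.26 ± 1.1 FPKM (SD, n = 3), so the ZLD1039 mean was 26.7% of the vehicle mean. On the scale of log2(FPKM + 1) the difference was -1.65, the 19th lowest of 10834 loci tested. At 5.2% of those loci every ZLD1039 tumour lay below every vehicle tumour. Because the pick used these values, nothing is read from the rank of TRIM16 or from TRIM16 against that share. In bulk tumours, fewer cells that express a gene and less RNA per cell cannot be told apart.

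The lower level was seen in each of the 3 quantities that could serve as the locus value. Summed end events of TRIM16 stood at 5.01, 10.1 and 9.72 FPKM under vehicle and at 1.86, 3.79 and 0.244 FPKM under ZLD1039. The largest single event stood at 9.38, 11.4 and 14.4 FPKM against 2.32, 4.28 and 2.42 FPKM. The groups did not overlap in either. The deviating ZLD1039 tumour 2 held the highest TRIM16 value of its group, and without it the log2 difference was -1.85. These quantities are drawn from the same transcripts and are not independent of each other.

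**Figure D1:**
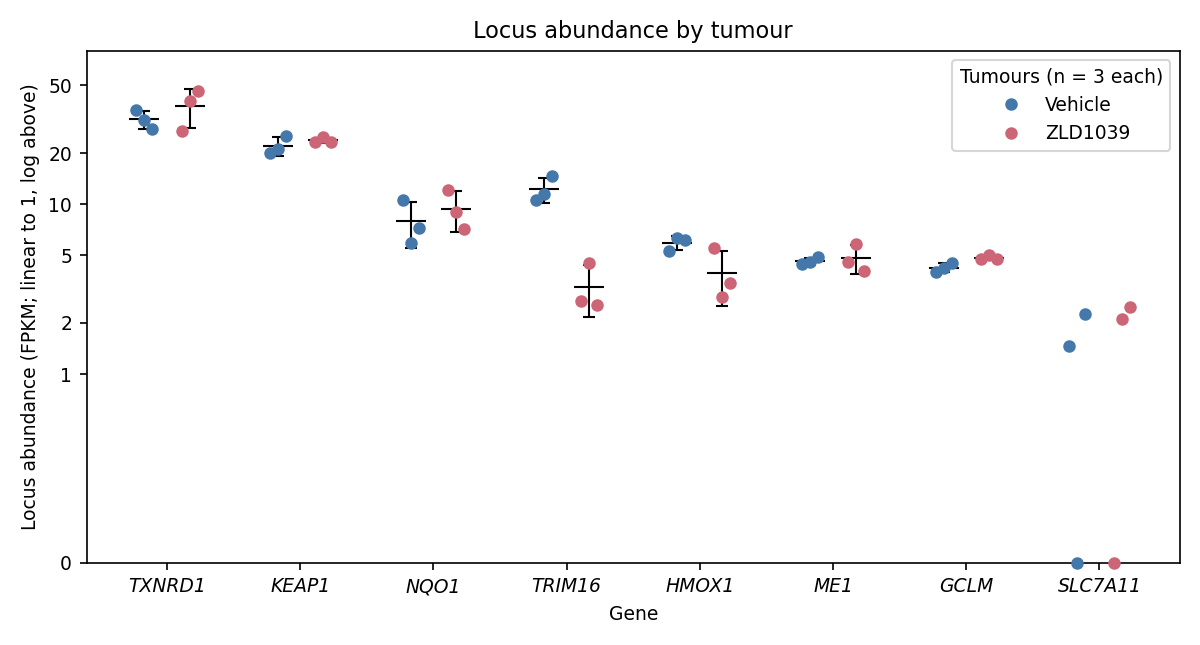
Locus abundance in FPKM (vertical axis, linear up to 1 and logarithmic above) of the 8 listed genes, ordered by their mean over all tumours. Each point is a tumour, and black marks give the mean and SD (n = 3), left out for SLC7A11, which was unlisted in a tumour of each group and is drawn there at 0. TRIM16 falls from 10.6 to 14.6 FPKM under vehicle to 2.54 to 4.53 FPKM under ZLD1039. The points of KEAP1, NQO1, TXNRD1, ME1, HMOX1 and SLC7A11 overlap between the groups. GCLM lies higher in every ZLD1039 tumour, as do 5.75% of all loci tested.

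Within the TRIM16 locus, 160 distinct events were listed in at least 1 tumour and 17 in all 6. Of those 17, 4 were lower in every ZLD1039 tumour than in every vehicle tumour and 0 were higher. Of all 91938 events listed in every tumour, 4.74% were lower in that way and 5.48% were higher. The TRIM16 events share transcripts with the locus value that chose the gene, so nothing is read from their count. The steadiest was the inclusion of an exon of 166 bases near the 3′ end (15535823 to 15535988). Transcripts with it stood at 9.16, 11.4 and 14.4 FPKM under vehicle and at 1.82, 3.64 and 2.42 FPKM under ZLD1039. Transcripts without it stood at or below 0.204 FPKM in every tumour, so this exon was almost always included in both groups. The main transcript end (15531274 to 15532512) stood at 4.98, 8.79 and 9.71 FPKM under vehicle and at 1.85, 3.68 and 0.237 FPKM under ZLD1039. The farthest listed end, 15491702 to 15492541, stood at 0.0187 FPKM in vehicle tumour 1 and 0.0173 FPKM in ZLD1039 tumour 2. It was listed in no other tumour. Listed ends summed to less than the starts in every tumour, as in ZLD1039 tumour 3, at 0.244 against 2.54 FPKM. The ends therefore do not show how much of the abundance lay beyond the main end. Whether the locus also holds transcripts of neighbouring genes was not settled. TRIM16 has a partial near-identical copy, TRIM16L, on the same chromosome, and how the authors divided reads between the pair is not stated in what was used here.

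The start sites of TRIM16 divided into a group at the 5′ edge of the locus and an internal site. Of the 5 start sites listed, 4 lay within 3381 bases of the edge and the fifth lay 41377 bases downstream. The 4 upstream starts together gave 10.5, 11.2 and 13.5 FPKM under vehicle. They gave 1.27, 4.38 and 2.30 FPKM under ZLD1039, without overlap, with a mean at 22.6% of the vehicle mean. The internal start (15546035 to 15546248) gave 0.0704, 0.267 and 1.04 FPKM under vehicle and 1.44, 0.142 and 0.237 FPKM under ZLD1039, with overlapping groups. The lower locus value thus lay in the upstream starts, which averaged 96.6% of the summed starts under vehicle. Summed starts set the locus value of TRIM16 in all 6 tumours, so this restates the values that picked the gene.

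Which upstream start event led differed from tumour to tumour. In vehicle tumour 1 the start with the long first exon (15586350 to 15587625) carried 56.8% of the start abundance. In vehicle tumour 2 a start at 15586168 to 15586193 carried 71.7%, and it was listed in no other tumour. In vehicle tumour 3 the start with the short first exon (15587510 to 15587625) carried 92.8%. The first and the last of these share their 5′ edge and differ in where the first exon ends. The start that led in vehicle tumour 2 lies within an exon, 15586168 to 15586265, and shares its 3′ edge. That exon was listed as included in every tumour. Whether this start event is a separate start or a shortened form of the exon was not tested.

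The ZLD1039 tumours were as varied in their leading TRIM16 start. The internal start led in ZLD1039 tumour 1, with 53.2% of the start abundance. A start at 15584179 to 15584244 carried 94.5% in ZLD1039 tumour 2, and it was also listed in vehicle tumour 1, at 37.0%. It too lies within an exon listed as included in every tumour, 15584179 to 15584267, and shares its 3′ edge. Whether it is a separate start was not tested. The short first exon led in ZLD1039 tumour 3, with 90.7%. Over the 6 tumours TRIM16 therefore had 5 different leading start events, of which 2 share their 5′ edge. Among 2187 loci with at least 5 start sites, counted by event in the same way, 16 (0.732%) had 5 or 6 leading sites and 988 (45.2%) had 1. The share of the short first exon averaged 38.5 ± 47.4% under vehicle and 41.3 ± 45.1% under ZLD1039 (SD, n = 3), a spread larger than the difference.

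**Figure D2:**
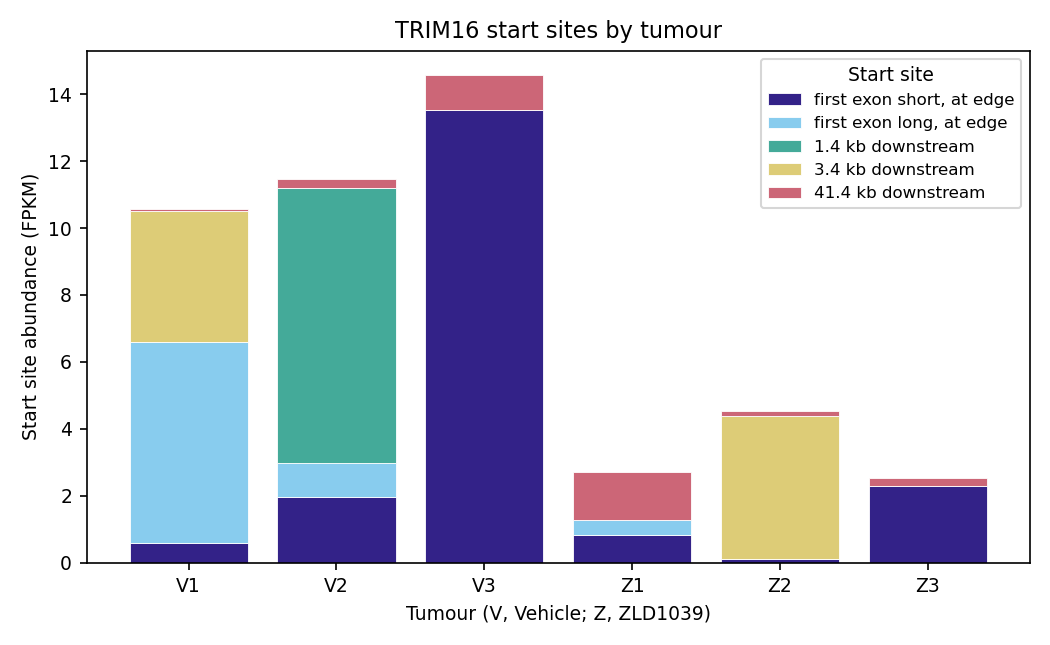
Abundance in FPKM (vertical axis) of the 5 TRIM16 start sites, stacked, in each vehicle (V) and ZLD1039 (Z) tumour, with sites named by their distance from the 5′ edge of the locus. The stacks are tall in V1 to V3 (10.6 to 14.6 FPKM) and short in Z1 to Z3 (2.54 to 4.53 FPKM), and the colour that fills most of a stack changes between tumours of a group.

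Of the regulators of the pathway, KEAP1 alone was listed under its own identifier. KEAP1 (ENSG00000079999, chromosome 19, 10596796 to 10613572, minus strand), the sensor that marks NRF2 for destruction, measured 19.9, 21.1 and 25.3 FPKM under vehicle and 23.1, 24.8 and 23.2 FPKM under ZLD1039. The ZLD1039 values fell inside the vehicle range. The log2 difference was 0.10 ± 0.16 (SE), with a 95% interval of -0.26 to 0.47 and an adjusted p of 0.91 by limma, adjusted over all loci. It was 0.036 without vehicle tumour 1 and 0.20 without vehicle tumour 3. A single start, 10613373 to 10613572, led in all 6 tumours. It carried 98.4, 99.3 and 98.4% of the start abundance under vehicle and 99.5, 99.997 and 99.997% under ZLD1039, higher in every ZLD1039 tumour. Its mean share lay above the 99% limit for the test of shares, so no test was made. Of 21321 start sites tested for their share, 4.11% had it higher and 3.96% lower in every ZLD1039 tumour. An internal KEAP1 start, 10602253 to 10602396, was also listed in every tumour. It stood at 0.160, 0.151 and 0.401 FPKM under vehicle and at 0.127, 0.000692 and 0.000608 FPKM under ZLD1039.

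No event carried the identifier of NFE2L2 (ENSG00000116044) or of GCLC (ENSG00000001084), the catalytic subunit of glutamate-cysteine ligase, in any tumour. This is no measurement of their expression. Each locus in the files carries at most 1 Ensembl identifier, so transcripts of overlapping genes can stand under another gene's identifier. A pair of loci listed in all 6 tumours under other identifiers may hold these genes, judged only from their position: ENSG00000213963 (chromosome 2, 178097120 to 178257425, minus strand) for NFE2L2 and ENSG00000231683 (chromosome 6, 53362139 to 53409927, minus strand) for GCLC. With no human annotation used here this was not settled, and their values were not analysed as those genes.

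Neither listed gene of glutathione supply passed the test. GCLM (ENSG00000023909, chromosome 1, 94350761 to 94374966, minus strand), the modifier subunit of the ligase that makes the glutathione precursor, measured 4.01, 4.20 and 4.50 FPKM under vehicle. It measured 4.75, 4.99 and 4.76 FPKM under ZLD1039, so every ZLD1039 tumour lay above every vehicle tumour. At 5.75% of all loci tested the groups lay apart in that direction, and GCLM was the only 1 of the 7 listed genes other than TRIM16 to do so. The step was small, from 4.24 ± 0.24 to 4.83 ± 0.13 FPKM (SD, n = 3). The log2 difference of 0.16 ± 0.16 (SE) did not pass the test (limma, adjusted p = 0.89). GCLM was listed with 1 start and 1 end, and both carried the same value in each tumour.

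SLC7A11 (ENSG00000151012, chromosome 4, 139085251 to 139163503, minus strand), the cystine importer that feeds glutathione synthesis, had the lowest values of the listed genes. It was listed at 1.46 and 2.25 FPKM in vehicle tumours 1 and 3 and at 2.10 and 2.48 FPKM in ZLD1039 tumours 2 and 3. It was unlisted in vehicle tumour 2 and in ZLD1039 tumour 1, and no group mean is given. Being unlisted is not a measured absence: 25 loci whose median exceeded 10 FPKM over the tumours that listed them were missing from at least 1 tumour. With those taken as 0 it did not pass the test (limma, adjusted p = 0.97). The sign of its difference depended on which tumour was left out.

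Of the redox enzymes, NQO1 did not differ in total beyond the spread of the tumours. NQO1 (ENSG00000181019, chromosome 16, 69740899 to 69760409, minus strand), a quinone reductase often used as a readout of NRF2, measured 10.6, 5.94 and 7.22 FPKM under vehicle and 12.1, 8.96 and 7.14 FPKM under ZLD1039. The groups overlapped over most of their range. The log2 difference was 0.23 ± 0.25 (SE; 95% interval -0.36 to 0.82, limma, adjusted p = 0.90), and a single start, 69760336 to 69760409, was listed in every tumour. The difference was 0.43 without vehicle tumour 1 and 0.39 without ZLD1039 tumour 3, but 0.065 without vehicle tumour 2 and 0.049 without ZLD1039 tumour 1.

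NQO1 transcripts came in 4 forms by a pair of neighbouring exons of 114 bases (69748867 to 69748980, upstream) and 102 bases (69746931 to 69747032, downstream). Transcripts with both exons made up 61.6, 69.2 and 75.4% under vehicle and 62.8, 82.9 and 89.9% under ZLD1039. Transcripts with neither made up 7.37, 28.8 and 24.4% under vehicle and 6.80, 12.6 and 9.97% under ZLD1039. The groups overlapped in both, and the difference in the form with neither, -10.4 percentage points, gave an exact two-sided permutation p of 0.3, where 3 tumours against 3 cannot give less than 0.1. That comparison was chosen after the values had been seen.

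The form of NQO1 that keeps the downstream exon and lacks the upstream one appeared in particular tumours of both groups. It made up 31.0% in vehicle tumour 1 and 30.2% in ZLD1039 tumour 1, and 4.45% in ZLD1039 tumour 2. In the other 3 tumours it made up 0.0138 to 0.0390%. The 2 tumours where it was high were also those with the highest NQO1 totals, at 10.6 and 12.1 FPKM.

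**Figure D3:**
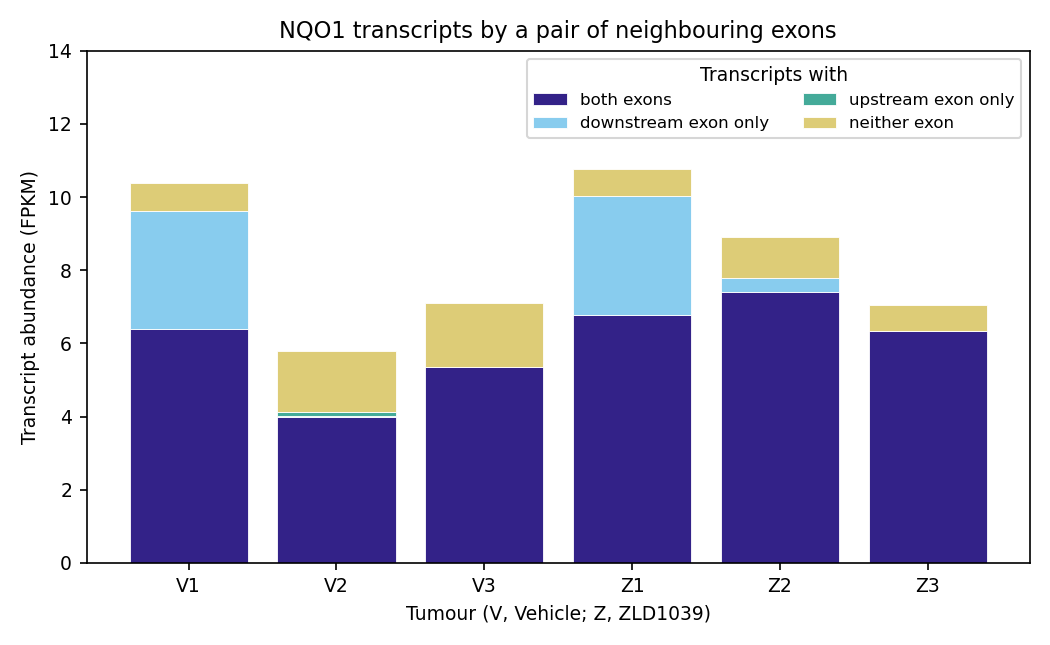
Abundance in FPKM (vertical axis) of NQO1 transcripts with both, either or neither of a pair of neighbouring exons, stacked, in each vehicle (V) and ZLD1039 (Z) tumour. The form with both exons leads everywhere, at up to 7.39 FPKM, and the form with the downstream exon alone is visible in V1 and Z1, at 3.22 and 3.25 FPKM.

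TXNRD1 had the highest locus values of the listed genes. TXNRD1 (ENSG00000198431, chromosome 12, 104680460 to 104739933, plus strand), the cytosolic thioredoxin reductase, measured 35.8, 31.1 and 27.8 FPKM under vehicle and 26.9, 40.6 and 46.2 FPKM under ZLD1039. The ZLD1039 tumours lay on both sides of the vehicle tumours. The log2 difference was 0.23 ± 0.23 (SE; 95% interval -0.29 to 0.75, limma, adjusted p = 0.89). With summed starts as the locus value it was 0.95 ± 0.72 (SE; limma, adjusted p = 0.90), and with the largest event 0.12. Leaving out a tumour gave 0.072 without ZLD1039 tumour 3, 0.14 without vehicle tumour 3 and 0.45 without ZLD1039 tumour 1.

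Start sites accounted for an uneven part of TXNRD1. Their sum was 27.4, 53.7 and 19.1% of the locus value in the vehicle tumours and 100, 13.8 and 100% in the ZLD1039 tumours. Transcripts that skip an exon at 104739797 to 104739933 set the locus value where starts were low. Among the listed starts, the site at 104680659 to 104681124 carried 45.5, 77.9 and 39.7% under vehicle and 94.2, 62.6 and 80.2% under ZLD1039. It lay 199 bases downstream of the other main site, 104680460 to 104680887, whose first exon overlaps it. The difference in share was 24.6 ± 13.6 percentage points (SE; 95% interval -8.73 to 58.0, limma, adjusted p = 0.76). Of all start sites tested 0% were called at an adjusted p under 0.05, and 2.49% had an unadjusted p under 0.05 (limma). In simulated data a shift of 20 points was found at 1.5% of the changed start sites, so a difference of this size was rarely detectable. No start site of these genes other than those of TXNRD1 and TRIM16 met the conditions for that test.

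**Figure D4:**
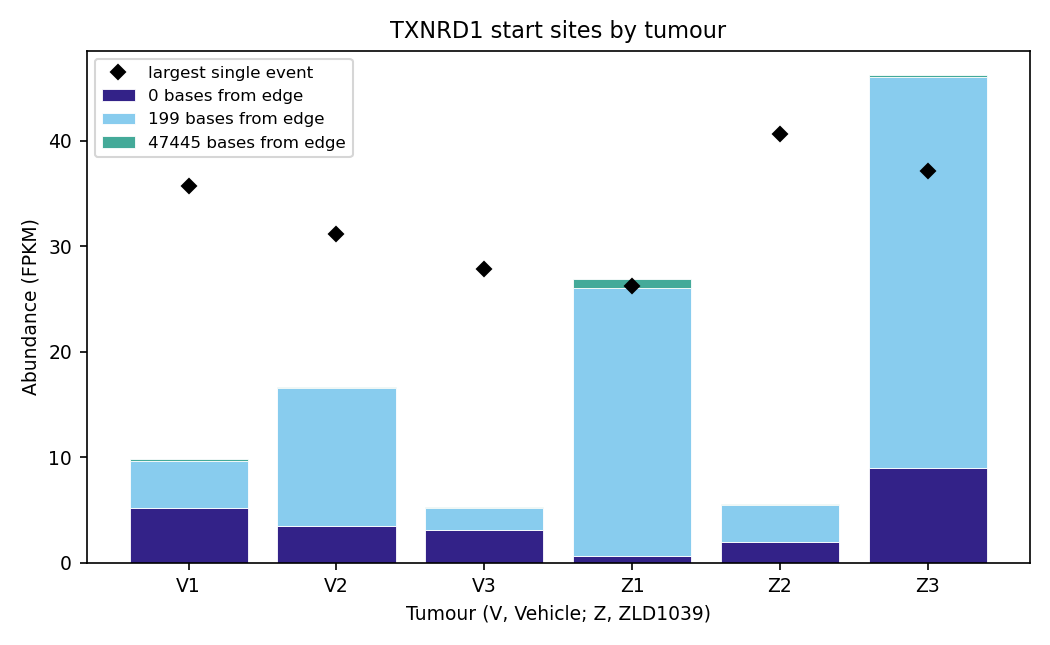
Abundance in FPKM (vertical axis) of the TXNRD1 start sites, stacked, in each vehicle (V) and ZLD1039 (Z) tumour, with the largest single event of the locus as a diamond. The stacks reach the diamond only in Z1 and Z3. In V1, V2, V3 and Z2 the starts sum to 5.32 to 16.7 FPKM and the diamond lies at 27.8 to 40.6 FPKM.

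HMOX1 was the only gene other than TRIM16 with a lower mean under ZLD1039. HMOX1 (ENSG00000100292, chromosome 22, 35777086 to 35790207, plus strand), the inducible haem oxygenase, measured 5.27, 6.36 and 6.16 FPKM under vehicle and 5.51, 2.82 and 3.44 FPKM under ZLD1039. ZLD1039 tumour 1 lay inside the vehicle range and the other two below it. The means were 5.93 ± 0.58 and 3.93 ± 1.41 FPKM (SD, n = 3), and the log2 difference was -0.53 ± 0.23 (SE; 95% interval -1.06 to 0.0078). It did not pass the test (limma, adjusted p = 0.88). The log2 difference was -0.36 without ZLD1039 tumour 2 and -0.75 without ZLD1039 tumour 1. The end site of HMOX1 was listed in all 6 tumours. Its single start was listed only in vehicle tumours 2 and 3, at 6.36 and 1.97 FPKM, and in ZLD1039 tumour 3, at 3.44 FPKM.

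ME1 (ENSG00000065833, chromosome 6, 83920108 to 84140797, minus strand), the cytosolic malic enzyme that makes NADPH, was the gene with the smallest difference. It measured 4.45, 4.56 and 4.86 FPKM under vehicle and 4.54, 5.84 and 4.03 FPKM under ZLD1039. The 3 vehicle tumours lay inside the range of the ZLD1039 tumours. The log2 difference was 0.033 ± 0.18 (SE; 95% interval -0.39 to 0.45, limma, adjusted p = 0.98). It turned to -0.091 without ZLD1039 tumour 2, the highest tumour. It was 0.13, 0.011, 0.063 and 0.061 without ZLD1039 tumour 3, vehicle tumour 1, vehicle tumour 3 and ZLD1039 tumour 1, in that order. A single start and a single end carried the same value in each tumour.

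Seen as a group, the pathway genes other than TRIM16 did not move past the threshold. Of the 7 listed, 6 had a positive and 1 a negative log2 difference, with a median of 0.14. That median is the value of SLC7A11, which was unlisted in a tumour of each group. The signs of SLC7A11 and ME1 turned when certain tumours were left out, so the count of 6 rests partly on unsettled signs. Over all 10834 loci tested 52.8% had a positive difference, with a median of 0.019. None of the 7 passed at an adjusted p under 0.05, and 0 had an unadjusted p under 0.05 (limma). Of all 10834 loci 0.0185% passed the adjusted threshold and 4.94% had an unadjusted p under 0.05, so 0 of 7 is near the share over all loci. The 95% intervals of KEAP1, GCLM and ME1 reached no further than 0.52 on either side of 0, and that of SLC7A11 ran from -1.25 to 1.54.

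**Figure D5:**
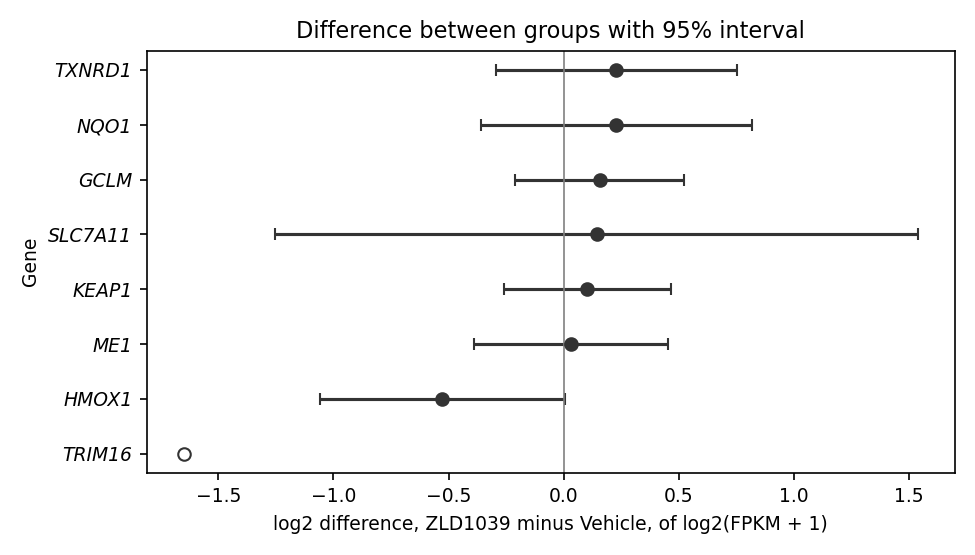
Difference between the group means of log2(FPKM + 1), ZLD1039 minus vehicle (horizontal axis), for the 8 listed genes. Bars are 95% intervals from limma, and TRIM16, picked by its values, is an open point at -1.65 with no interval. The other 7 points lie between -0.53 and 0.23, and each of their intervals includes 0.

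FPKM is per length, but the locus values are lower bounds and came from different quantities. Summed starts set them for TRIM16 in all 6 tumours, a skip event set them for TXNRD1 in 4, and ends for HMOX1 in 4. Their order is therefore one of these values and not of the genes' transcript levels. Under vehicle it was TXNRD1, KEAP1, TRIM16, NQO1, HMOX1, ME1, GCLM and SLC7A11. TRIM16 and NQO1 overlapped there, as did NQO1 and HMOX1, and ME1 and GCLM. Under ZLD1039 the order was TXNRD1, KEAP1, NQO1, GCLM, ME1, HMOX1, TRIM16 and SLC7A11. There GCLM overlapped with ME1 and HMOX1, ME1 with HMOX1 and TRIM16, and HMOX1 with TRIM16. TRIM16 stood at place 3 under vehicle and place 7 under ZLD1039. Among all loci tested, its value by tumour ran from the 18.6th to the 68.9th percentile, against the 78.3rd to the 81.8th for KEAP1.

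The loci whose values followed TRIM16 most closely over the 6 tumours are known here by identifier only, since the sources used here pair no human names with them. Of 10698 other loci with an Ensembl identifier, 55 had a Pearson correlation with TRIM16 of at least 0.9 on log2(FPKM + 1). The closest was ENSG00000071553 (chromosome X, 153656978 to 153663532, plus strand), with r = 0.996. It measured 30.7, 30.7 and 33.6 FPKM under vehicle and 22.9, 24.6 and 22.5 FPKM under ZLD1039. The next was ENSG00000160345 (chromosome 9, 138387287 to 138393580, minus strand), with r = 0.994, at 5.61, 5.51 and 6.68 FPKM against 3.10, 3.56 and 2.78 FPKM. These 6 points share the groups, and with TRIM16 picked for its difference between them, loci that differ the same way rank high by construction.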

How the data were processed

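The authors deposited, per the file headers, a list of transcript events for each of the 6 tumours with an FPKM value for each event. Per the submitters' processing notes, HTSeq 0.6.1, bcl2fastq 2.17.1.14 and build mm10 were used, in roles that are not stated. Aligner, assembler, event program and human build: not given in the sources used here. Values reach down to 1e-06 FPKM, so they are estimates and not steps of whole fragments, depth is unknown, and no count model was used.

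An unlisted event or locus was given 0. The test was limma 3.58.1 (R 4.3.3) with its trend option, run on log2(FPKM + 1) of every locus whose mean reached 1 FPKM under vehicle or ZLD1039. P-values were adjusted by Benjamini and Hochberg's method over all loci, with a threshold of 0.05. A fold on that scale understates changes of low values. Start site shares were tested likewise, in percent of the summed starts, for loci with at least 2 starts whose summed starts averaged 1 FPKM or more and were never 0, and for sites whose mean share lay between 1% and 99%. Exon forms were compared by exact permutation (SciPy 1.17.1).

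Groups and replicate numbers come from the sample titles. The genes, lists and settings were chosen with earlier results of these data known. Named are all 10 genes with their starts averaging at least 0.5 FPKM, and 2 of the 5 loci most correlated with TRIM16. Lists of other NRF2 targets, NRF2 regulators, antioxidant enzymes, TRIM16 relatives, and melanoma and host cell markers were not analysed here, because the tables used pair no human symbols with identifiers. Both fits were tested on simulated data with 200 changed items. Limma found 16% of shifts of 1 and 83% of shifts of 2 on the scale of log2(FPKM + 1) among 10834 loci. Among 21321 start sites it found 1.5% of shifts of 20 points and 31% of shifts of 40 points.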

Additional observations from a re-analysis of the deposited data

How the results depend on the processing

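The log2 difference of TRIM16 kept its sign in all 13 alternative runs and ran from -1.91 to -1.53. The pick required every ZLD1039 tumour to lie below every vehicle tumour, so leaving out a tumour could not turn the sign. Without a filter, without the trend, with summed starts and with the replicate block the estimate stayed at -1.65 by construction. Nothing is read from the kept sign. Leaving out a tumour gave -1.85 to -1.53. None of the other 7 listed genes passed the threshold in any alternative run. KEAP1, NQO1, GCLM, HMOX1 and TXNRD1 kept their sign in all 13. SLC7A11, which the filter removed with summed starts, ran from -0.36 to 0.72 with 1 tumour left out and was -0.36 without vehicle tumour 2, -0.10 without ZLD1039 tumour 2 and -0.18 without ZLD1039 tumour 3. ME1 ran from -0.091, without ZLD1039 tumour 2, to 0.13. For NQO1 the log2 difference was 0.05 to 0.43 with 1 tumour left out.

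The count of 2 loci called over the whole table, neither of them among these genes, became 0 without a filter, with summed starts and with the replicate block. With a pseudocount of 0.1, the largest event as the locus value, median-of-ratios scaling or no trend, 1 locus was called, each time 1 of these 2. With 1 tumour left out 0 to 1 loci were called. The 1 call, without vehicle tumour 1, was a lower locus and neither of the 2, which were both higher. For start sites the count of 0 became 1 on the log2 ratio scale and 11 without the trend, and stayed 0 elsewhere. The cause was not tested. The share of TRIM16's short first exon differed by -21.9 to 29.9 points with 1 tumour left out, with -13.7, -7.88 and -21.9 without vehicle tumour 1, vehicle tumour 2 and ZLD1039 tumour 3. Deviations from the group means correlated at -0.03, 0.02 and -0.06 between tumours of the same number. Between tumours of different numbers they correlated at -0.06 to 0.11. With 3 tumours in each group, this cannot exclude that the numbers pair the tumours. The replicate block changed no call of these genes.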
